A study of Mus musculus with 11 samples.

Results

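Arc, Npas4, Homer1, Plk2, Rgs2, Bdnf, Nptx2 and Nrn1 are neuronal genes whose transcription follows synaptic activity. Npas4 encodes a transcription factor, and the products of the others act on synapses. The 8 genes were taken from the deposited hippocampus table by symbol. All 8 symbols were found among its 46202 rows, and all 8 passed the filter on low signal that kept 27721 rows.

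Strong synaptic input raises calcium in the nucleus of a neuron and activates CREB, SRF and MEF2, transcription factors that are already present in the cell. These switch on a first wave of genes within minutes, some of which encode further transcription factors, while others encode proteins that go directly to the synapse. In the hippocampus the effector genes are known for scaling synaptic strength up or down after activity and for their part in memory.

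RNA came from the hippocampus of male C3-C57B1/6J mice that were 2 to 3 months old and housed singly. Mice received saline or insulin into each nostril, the insulin at 2.4 IU per nare, with isoflurane anaesthesia before the tissue was taken. The saline group (n = 3) is called saline-treated in its titles, untreated in its treatment label and 0 min in its time label, so handling and sampling time cannot be told apart from insulin. The insulin groups were sampled at 15 min (n = 2, replicates 1 and 3; replicate 2 was not analysed here), 1 h (n = 3) and 6 h (n = 3). Although 3 animals per time are named, no label ties 1 animal to 1 library, and the p-values therefore measure only the variation among libraries. Total RNA was sequenced, and the table holds quantile-normalized log signals, read here as log2. Sequencing depth is unknown, and since the files do not say whether signals were scaled by length, levels are not compared between genes.

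The libraries held a value for 32037 to 33653 rows each. Hippocampal marker genes had a value in every library. Prox1, of dentate granule neurons, lay between log2 signals of 0.13 and 1.10, and Wfs1, of pyramidal neurons, between -0.60 and 0.22. The 18S ribosomal RNA row Rn18s-rs5 had log2 signals of 13.0 to 16.0 with saline and 9.67 to 12.2 with insulin. Over all rows tested, the median log2 changes from saline at 15 min, 1 h and 6 h were -0.14, -0.11 and -0.04 on the deposited scale, which centring the libraries on their median moved to 0.04, 0.03 and -0.01.

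None of the 8 genes passed an adjusted p of 0.05 in any comparison (limma with Benjamini-Hochberg adjustment over all rows). The background share of rows called was 0.239%, 0.877% and 0% at 15 min, 1 h and 6 h. At an unadjusted p under 0.05, 2 genes were higher at 15 min (Npas4 and Homer1), 1 at 1 h (Rgs2) and 0 at 6 h, against 1.86%, 2.87% and 2.75% of all rows in that direction. None of the 8 was lower at an unadjusted p under 0.05, against 13.2%, 12.8% and 4.23% of all rows. The 8 genes had median log2 changes of 0.20, 0.13 and -0.09 at these times. The values nearest to the threshold were those of Rgs2 at 1 h and of the transcription factor Npas4 at 15 min, and both are given library by library with the other genes.

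**Figure D1:**
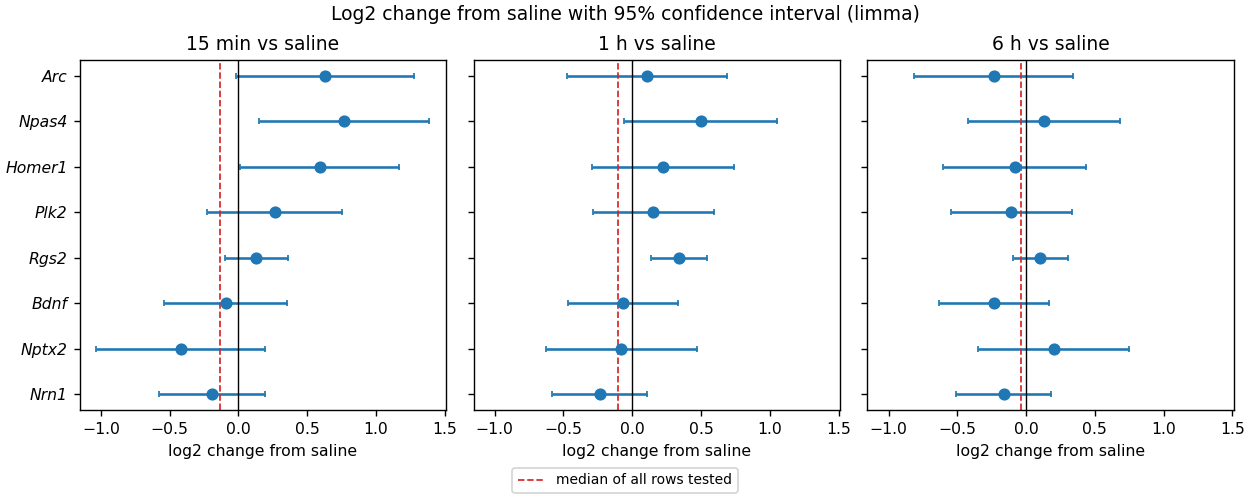
Log2 change from saline (x axis) of each of the 8 genes (y axis) at 15 min, 1 h and 6 h, with 95% confidence intervals from limma; the dashed line is the median change over all rows tested. The interval lies above 0 for Npas4 and Homer1 at 15 min and for Rgs2 at 1 h, and it includes 0 for all 8 genes at 6 h.

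Promoter sequences of the genes whose libraries moved together (Homer1 and Plk2) and of those with libraries that did not overlap saline (Npas4 and Rgs2) are shown because CREB, which reads synaptic activity, binds the cAMP response element TGACGTCA. The windows are the 250 bases before a start site, from RefSeq on GRCm38.p6. They are printed on the strand of the gene, in lower case, and capitals mark each TGACGT or its reverse complement ACGTCA.
Homer1, 250 bases before the start at chr13:93303507-93303756, plus strand: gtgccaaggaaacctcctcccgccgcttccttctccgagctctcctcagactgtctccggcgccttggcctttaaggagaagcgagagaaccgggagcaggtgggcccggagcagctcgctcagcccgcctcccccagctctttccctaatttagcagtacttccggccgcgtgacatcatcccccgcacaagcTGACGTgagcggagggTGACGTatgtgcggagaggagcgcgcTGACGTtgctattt
Plk2, 250 bases before the start at chr13:110394794-110395043, plus strand: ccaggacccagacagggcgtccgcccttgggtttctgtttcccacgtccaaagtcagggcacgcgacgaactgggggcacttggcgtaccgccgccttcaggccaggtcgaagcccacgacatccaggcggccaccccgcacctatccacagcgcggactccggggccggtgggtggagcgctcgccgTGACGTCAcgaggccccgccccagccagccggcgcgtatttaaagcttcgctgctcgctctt
Npas4, 250 bases before the start at chr19:4989972-4990221, minus strand: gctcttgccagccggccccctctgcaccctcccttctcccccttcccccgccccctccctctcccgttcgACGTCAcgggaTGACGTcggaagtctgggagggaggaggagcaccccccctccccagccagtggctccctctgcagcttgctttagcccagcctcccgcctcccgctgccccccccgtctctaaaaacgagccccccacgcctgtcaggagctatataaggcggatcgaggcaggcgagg
Rgs2, 250 bases before the start at chr1:144004150-144004399, minus strand: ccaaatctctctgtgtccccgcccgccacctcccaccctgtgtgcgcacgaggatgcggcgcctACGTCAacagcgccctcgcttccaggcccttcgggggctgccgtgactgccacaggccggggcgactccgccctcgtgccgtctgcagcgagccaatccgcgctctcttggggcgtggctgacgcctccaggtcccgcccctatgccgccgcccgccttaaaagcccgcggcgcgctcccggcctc
Homer1 held 3 matches to TGACGT between 8 and 50 bases before the start, and 0.152% of the 32851 windows of this length held 3 or more. A second Homer1 window, at chr13:93307784-93308033 on the plus strand, held 0 matches. Plk2 held the complete TGACGTCA, which counts as 2 overlapping matches to the core, and 1.55% of windows held it. In Npas4 the 2 matches lay 163 and 174 bases before the start, and Rgs2 held 1 match 180 bases before it. The Npas4 window lies inside the span given below for that gene, so its start site is not the outer end of that span. Of the 7 Bdnf windows, 1 held a match, at chr2:109692186-109692435 on the plus strand. TGACGT on either strand was present in 6.47% of all windows and in 5 of the 12 windows of these 5 genes. Arc, Nptx2 and Nrn1 were not matched in the promoter table. A match describes these letters and not binding.

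Npas4 encodes a neuronal transcription factor that is induced by calcium entry and in turn activates Bdnf and genes of inhibitory synapses (chromosome 19, 4984353 to 5003439, GRCm38.p6). Its log2 signal was -2.48, -2.30 and -2.06 in saline replicates 1, 2 and 3, and -1.70 and -1.33 in replicates 1 and 3 at 15 min. At 1 h it was -1.86, -1.78 and -1.70 in replicates 1 to 3, and at 6 h -2.71, -1.59 and -2.15. All 5 libraries taken at 15 min and 1 h lay above all 3 saline libraries, while the 6 h libraries spanned almost the whole range of the gene. Non-overlap in this direction held for 6.96% of rows at 15 min and 6.27% at 1 h.

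The log2 change of Npas4 from saline was 0.77 at 15 min (SE 0.28, a 1.70-fold higher signal, limma adjusted p = 0.25). At 1 h it was 0.50 (SE 0.25, 1.41-fold, limma adjusted p = 0.38) and at 6 h 0.13 (SE 0.25, limma adjusted p = 0.90). Relative to the median of all rows, the 15 min and 1 h changes were 0.90 and 0.60. Leaving out the 15 min library of replicate 3 gave a change of 0.58 with a lone library at that time, whose spread is then assumed to be that of the other groups.

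Arc encodes a cytoskeletal protein that removes AMPA receptors from synapses, and its mRNA is carried into active dendrites (chromosome 15, 74669081 to 74672570). Saline libraries had log2 signals of 2.39, 2.24 and 2.66 (replicates 1, 2 and 3), and the 15 min libraries 2.62 and 3.50 (replicates 1 and 3). Later values were 2.18, 2.37 and 3.04 at 1 h and 1.95, 2.38 and 2.24 at 6 h. The highest values of the gene were those of replicate 3 at 15 min and at 1 h, and each insulin group overlapped saline. At 15 min the log2 change was 0.63 (SE 0.29, 1.55-fold, limma adjusted p = 0.34), and without replicate 3 at that time it was 0.19. The changes at 1 h and 6 h were 0.11 and -0.24 (limma adjusted p = 0.88 and 0.82), and the 1 h change was -0.15 without replicate 3 at 1 h.

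Homer1 encodes a scaffold that ties group I metabotropic glutamate receptors to the postsynaptic density (chromosome 13, 93303757 to 93405129). Activity induces a short form that loosens this scaffold, and the table has 1 row for the symbol, so the forms cannot be told apart. Its log2 signal was -0.59, -0.50 and 0.02 with saline (replicates 1, 2 and 3) and -0.08 and 0.55 at 15 min (replicates 1 and 3). At 1 h it was -0.33, -0.36 and 0.29 and at 6 h -0.38, -0.66 and -0.27. Replicate 3 was the highest library of every group, and saline replicate 3 lay above the first 15 min library. The 15 min change was 0.59 (SE 0.26, 1.50-fold, limma adjusted p = 0.33), and it was 0.27 without replicate 3 at 15 min. At 1 h and 6 h the changes were 0.22 and -0.08 (limma adjusted p = 0.69 and 0.93).

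Plk2 encodes a Polo-like kinase that weakens and removes dendritic spines after prolonged activity by acting on Ras and Rap regulators (chromosome 13, 110395044 to 110400844). The log2 signals of Plk2 were 2.43, 2.27 and 2.77 with saline, 2.62 and 2.89 at 15 min, 2.54, 2.31 and 3.09 at 1 h and 2.39, 2.20 and 2.56 at 6 h, in the same order of replicates. Again the third replicate was the highest in all 4 groups, and no insulin group stood clear of saline. The log2 changes were 0.26 at 15 min, 0.15 at 1 h and -0.11 at 6 h (SE 0.20 to 0.22, limma adjusted p = 0.60, 0.76 and 0.89).

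Rgs2 encodes a protein that speeds GTP hydrolysis by G protein alpha subunits, mainly Gq, and so shortens receptor signalling (chromosome 1, 143999338 to 144004149). Rgs2 had log2 signals of 2.32, 2.45 and 2.31 with saline and 2.46 and 2.53 at 15 min. At 1 h it was 2.73, 2.70 and 2.68, and at 6 h 2.31, 2.41 and 2.68. The 1 h libraries lay above all saline and 15 min libraries (non-overlap with 15 min in this direction held for 10.9% of rows), while at 6 h only replicate 3 was at their level. The spread of Rgs2 within groups was small, with a residual SD of 0.113, and 17.6% of rows with a value in every library had a smaller one.

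The change of Rgs2 at 1 h was 0.34 (SE 0.091, 1.27-fold, 95% interval 0.14 to 0.54, limma adjusted p = 0.12), and 930 rows had a smaller p. It passed the threshold when libraries were centred on their median (change 0.48, limma adjusted p = 0.046). Library quality weights took the count of all rows called at 1 h from 243 to 1539. Rgs2 also passed under these weights (0.35, limma adjusted p = 0.043). Over all 19 alternatives the adjusted p of this change ran from 0.043 to 0.43, and the change itself from 0.32 to 0.48. The 15 min change was 0.13 (SE 0.10, limma adjusted p = 0.57), with both libraries above all saline libraries by a margin smaller than the saline spread. At 6 h the change was 0.11 (limma adjusted p = 0.78), and from 1 h to 6 h Rgs2 differed by -0.24 (SE 0.091, limma adjusted p = 0.37).

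**Figure D2:**
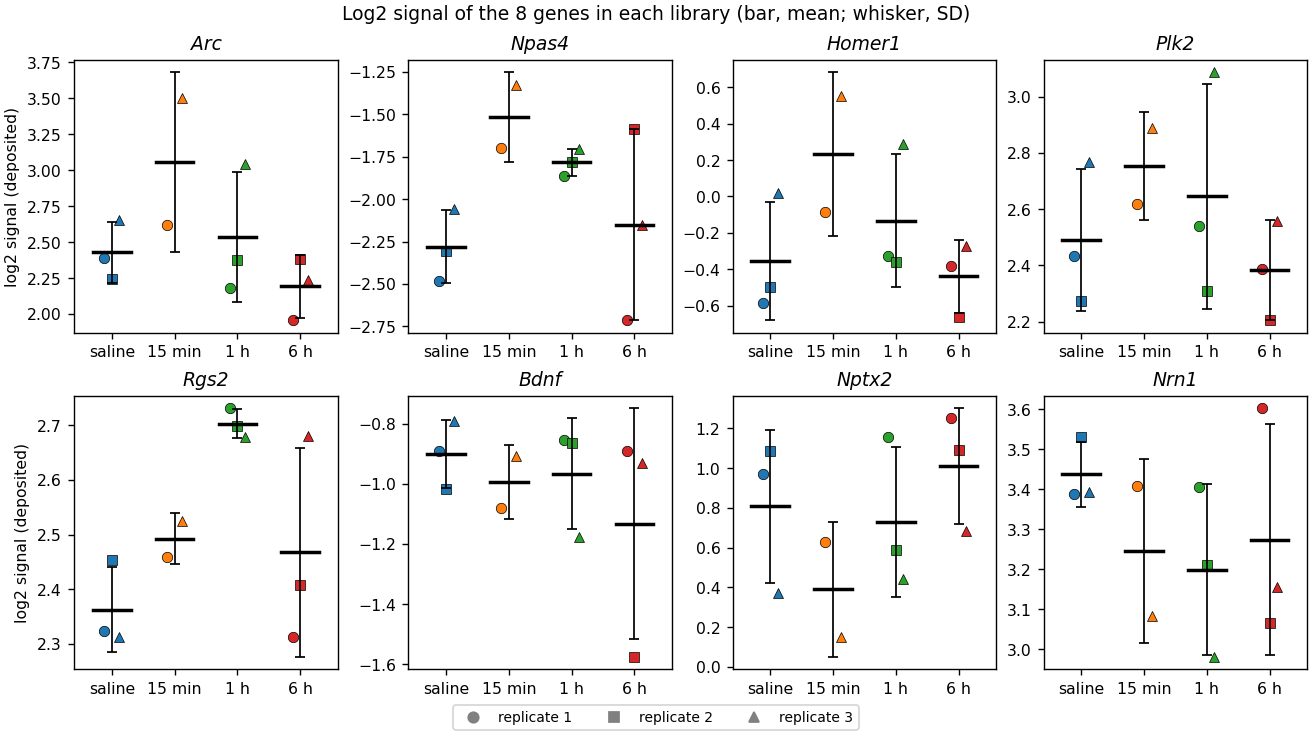
Log2 signal (y axis) of each gene in each library by group (x axis), with the mean as a bar and the SD as a whisker; the marker shape gives the replicate number. The 1 h libraries of Rgs2 sit between 2.68 and 2.73, above all saline libraries, whereas replicate 3 is the top library of every group for Homer1 and Plk2.

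Bdnf encodes a secreted neurotrophin that strengthens excitatory synapses through the receptor TrkB (chromosome 2, 109674700 to 109727043). It has several promoters that respond differently to activity, and the table has 1 row for the symbol. Bdnf was measured at log2 signals of -0.89, -1.02 and -0.79 with saline, -1.08 and -0.91 at 15 min, -0.85, -0.87 and -1.18 at 1 h and -0.89, -1.58 and -0.93 at 6 h. Replicate 2 at 6 h was the lowest library, and all insulin groups overlapped saline. The changes were -0.09 at 15 min and -0.07 at 1 h on the deposited scale, with 95% intervals of -0.54 to 0.35 and -0.46 to 0.33, and both turned positive (0.08 and 0.07) with libraries centred on their median and also under cyclic loess (both 0.03). At 6 h the change was -0.23 (limma adjusted p = 0.76), and it was -0.01 without replicate 2 and -0.35 without replicate 1 at 6 h.

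Nptx2, also called Narp, encodes a secreted pentraxin that gathers AMPA receptors on inhibitory interneurons (chromosome 5, 144545887 to 144557478). Its log2 signal was 0.97, 1.09 and 0.37 with saline and 0.63 and 0.15 at 15 min. It was 1.16, 0.59 and 0.44 at 1 h and 1.25, 1.09 and 0.68 at 6 h. Replicate 3 was the lowest library of every group, the reverse of Homer1 and Plk2. The change was -0.42 at 15 min (SE 0.28, limma adjusted p = 0.50), -0.08 at 1 h and 0.20 at 6 h (limma adjusted p = 0.91 and 0.83), and the 1 h change was 0.06 with libraries centred on their median. At 15 min the change was -0.18 without replicate 3 and -0.66 without replicate 1 at that time.

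Nrn1 encodes neuritin, a small protein anchored at the cell surface that promotes neurite growth and spine stability (chromosome 13, 36725622 to 36734477). Its log2 signal was 3.39, 3.53 and 3.39 with saline, 3.41 and 3.08 at 15 min, 3.41, 3.21 and 2.98 at 1 h and 3.60, 3.06 and 3.16 at 6 h. Replicate 1 of each insulin group lay above the lowest saline library, so that every group overlapped saline, and the other libraries at all 3 times lay below all saline libraries. The changes were -0.19, -0.24 and -0.16 at 15 min, 1 h and 6 h (SE 0.15 to 0.17, limma adjusted p = 0.62, 0.50 and 0.79).

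The insulin times were also compared with each other. From 15 min to 6 h, Arc differed by -0.87 (SE 0.29, limma adjusted p = 0.25), Homer1 by -0.67 (SE 0.26, adjusted p = 0.29) and Npas4 by -0.64 (SE 0.28, adjusted p = 0.34), while Nptx2 differed by 0.62 (SE 0.28, adjusted p = 0.35). These differences moved with single libraries. Without 15 min replicate 3 they were -0.43 for Arc, -0.35 for Homer1 and 0.38 for Nptx2, and without 15 min replicate 1 -1.31, -0.99 and 0.86. For Npas4 the difference was -0.36 without 6 h replicate 1 and -0.92 without 6 h replicate 2. Of the 24 changes of the 8 genes from saline, 21 moved by over 1.5 times or reversed in at least 1 fit that left out libraries. For Arc, Homer1 and Plk2 all 3 libraries at 6 h lay below both 15 min libraries, and for Nptx2 they lay above, although non-overlap in these directions held for 7.08% and 22.3% of all rows. No gene of the 8 passed in this comparison, in which 0.00723% of rows did, and 4 had an unadjusted p under 0.05, against 14.2% of all rows. From 1 h to 6 h the count was 0 of 8, against 0.0108% of rows, with 1 of 8 (Rgs2) at an unadjusted p under 0.05 against 11.1% of rows. From 15 min to 1 h it was 0 of 8 against 0% of rows, with 0 of 8 at an unadjusted p under 0.05 against 3.49% of rows (limma). A moderated F test over the 3 contrasts with saline called 0 of the 8 genes, against 0.365% of rows, with Rgs2 lowest (limma adjusted p = 0.28).

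The 8 genes did not follow one pattern over the libraries. Homer1 and Plk2 were the closest pair over the 11 libraries, with Pearson's r = 0.91 (permutation p = 0.00016, adjusted over 28 pairs 0.0029) and Spearman's rho = 0.93 (permutation p = 0.00011, adjusted 0.0031). Within groups, after the group means were taken out, r was also 0.91. Without the 2 libraries farthest from the median of 1 gene of the pair, here Homer1, r was 0.88. Nptx2 ran the other way. Its r was -0.85 with Arc (permutation p = 0.00021, adjusted 0.0029, rho = -0.85 with permutation p = 0.0019, adjusted 0.027, within groups -0.76, without 2 libraries -0.78). With Homer1 it was -0.84 (permutation p = 0.00065, adjusted 0.0060, rho = -0.76 with permutation p = 0.0084, adjusted 0.078, within groups -0.77, without 2 libraries -0.81).

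Arc and Homer1 had r = 0.87 (permutation p = 0.00086, adjusted 0.0060) and 0.78 within groups, but rho was 0.58 (permutation p = 0.065, adjusted 0.23). Without the 2 libraries farthest from the median of Arc, r was 0.47, and leaving these out also narrows the range of Arc. Of the 28 pairs, 15 had a positive and 13 a negative r, and 8 had an adjusted p under 0.05 for r. Rgs2 and Bdnf were in none of these 8 pairs. For rho, only Homer1 with Plk2 and Arc with Nptx2 had an adjusted permutation p under 0.05 (0.0031 and 0.027). The permutations shuffled all 11 libraries without regard to group or replicate number. The share of such pairs among all rows was not computed.

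**Figure D3:**
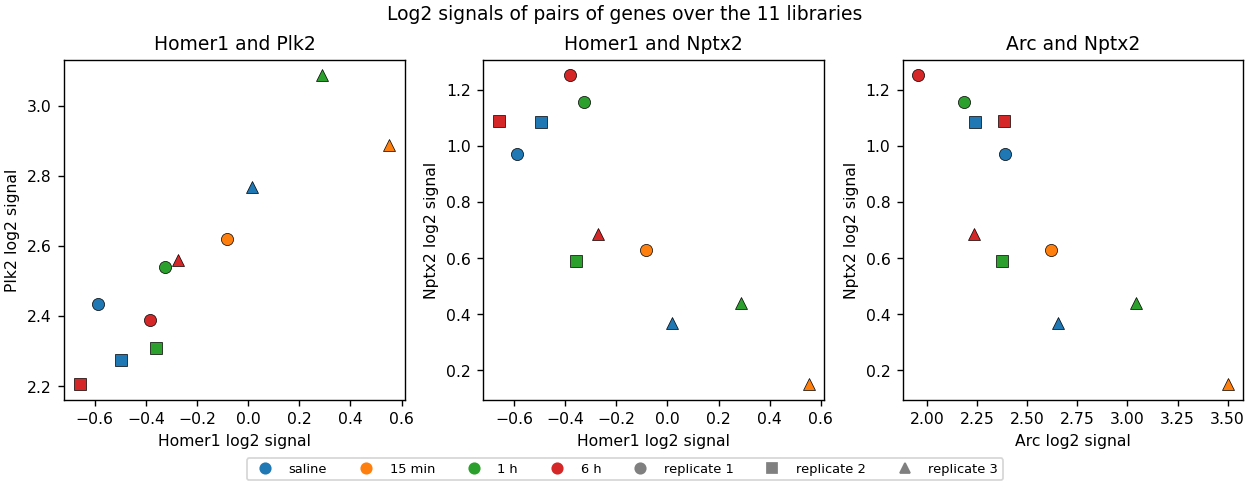
Log2 signals of 3 pairs of genes against each other, 1 point per library, with colour for the group and shape for the replicate number. Plk2 is high where Homer1 is high (r = 0.91), and Nptx2 is low where Homer1 (r = -0.84) or Arc (r = -0.85) is high, with replicate 3 of saline, 15 min and 1 h at that end.

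Values of 2 neuron markers, chosen after their values were seen, were high in most libraries numbered 3. Neurod6, a transcription factor of pyramidal neurons in hippocampus and neocortex, had log2 signals of -0.60, -2.07 and 2.55 in saline replicates 1, 2 and 3 and -0.60 and 2.26 in 15 min replicates 1 and 3. At 1 h it was -1.83, -0.97 and 0.80 and at 6 h -1.20, -0.24 and 0.54, so replicate 3 was the highest in each group. Sst, of somatostatin interneurons, was at 3.14, 3.04 and 4.11 with saline, 3.41 and 4.49 at 15 min, 3.80, 3.10 and 4.70 at 1 h and 3.23, 4.47 and 4.36 at 6 h. It too was highest in replicate 3 of every group but 6 h.

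All 8 interneuron and all 8 striatal markers had a value in every library. For interneurons the summed linear signal spanned 21.0 to 33.5 (saline), 26.2 to 42.0 (15 min), 23.1 to 46.0 (1 h) and 21.4 to 44.6 (6 h). Its highest library was replicate 3 with saline, at 15 min and at 1 h, and replicate 2 at 6 h. The striatal sum was 8.91 to 11.9, 15.6 to 18.5, 8.86 to 26.3 and 9.55 to 17.5 in the same groups, and both 15 min libraries exceeded all saline libraries. Replicate 3 had the highest striatal sum in every group. The pyramidal sum (8 markers) ran from 6.18 to 13.7 over all 11 libraries, and from 5.67 to 8.86 without Neurod6. The dentate granule sum (7 markers) ran from 8.05 to 11.3, and replicate 3 was the lowest library of each insulin group (8.62, 8.05 and 8.46 at 15 min, 1 h and 6 h) but not of saline (10.6 against 9.69 in replicate 2). Whether these differences in cell or tissue makeup contribute to the values of Arc, Homer1, Plk2 and Nptx2 was not tested. In bulk tissue, a change in the share of a cell type and a change in its RNA content cannot be told apart. Without the 4 libraries numbered 3, which leaves 1 library at 15 min, the 15 min changes were 0.30 for Arc, 0.69 for Npas4 and 0.46 for Homer1, and Rgs2 at 1 h was 0.33 (limma adjusted p = 0.91, 0.91, 0.87 and 0.43).

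**Figure D4:**
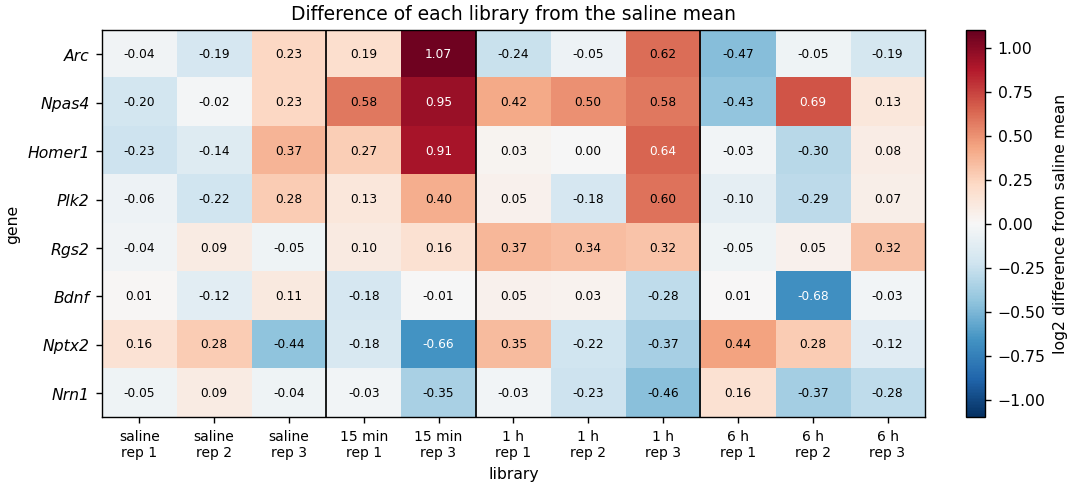
Difference of each library from the saline mean (colour and printed log2 values) for the 8 genes (rows) in the 11 libraries (columns). Replicate 3 at 15 min and at 1 h is high for Arc (1.07 and 0.62), Homer1 (0.91 and 0.64) and Plk2 (0.40 and 0.60) and low for Nptx2 (-0.66 and -0.37), while Rgs2 is high in all 3 libraries at 1 h.

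The genes that sit around these effectors were counted as lists. The lists were chosen with earlier results of these data known, so their counts and medians are descriptive. Of 20 immediate early transcription factors, the first wave that acts beside the effectors, 4 rose at 15 min and 5 at 1 h, and 0 fell. Of all rows, 0.239% and 0.877% passed at these times, in either direction. Klf4 rose by 1.91 on the log2 scale at 15 min and 1.94 at 1 h, and Fos, a subunit of the AP-1 complex, by 1.64 and 1.36 (limma adjusted p = 0.0034 for both genes at 15 min). Fosb and Nr4a1 rose at both times, and Nr4a2 passed at 1 h (1.08, limma adjusted p = 0.025). The median change of the list was 1.12 at 15 min and 0.98 at 1 h, against -0.14 and -0.11 over all rows. At 6 h the count was 0 of 20 (limma), against 0% of all rows, and the median was 0.20. At an unadjusted p under 0.05, 3 were higher at 6 h, against 2.75% of all rows.

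Klf4 and Fos stayed past the threshold in each of the 11 fits that left out 1 library, at both times. Fosb passed in 2 and 8 of them (15 min and 1 h), Nr4a1 in 1 and 5, and Nr4a2 at 1 h in 6. Without the 4 libraries numbered 3, 0 of the 20 passed at either time. The list count at 15 min was 2 when saline replicate 1, 2 or 3, either 15 min library, any 1 h library or 6 h replicate 3 was left out, and 1 when only the groups compared were fitted. At 1 h it was 2 without saline replicate 1, 1 h replicate 1 or 1 h replicate 2. It was 3 without saline replicate 2 or 3. With library quality weights it was 9, while 1539 of all rows passed, against 243 in the main fit.

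Of 25 other activity-induced effectors tested, 0 passed at any time (limma), with 9, 7 and 4 higher at an unadjusted p under 0.05 at 15 min, 1 h and 6 h and 0, 1 and 1 lower. All rows had 1.86%, 2.87% and 2.75% higher and 13.2%, 12.8% and 4.23% lower at these times. The nearest was Cdkn1a, a cell cycle inhibitor, at 1 h (change 1.14, SE 0.22, limma adjusted p = 0.052), followed by Trib1, a pseudokinase that steers protein degradation (0.75, SE 0.16, limma adjusted p = 0.061). Pcdh8, a protocadherin of activity-regulated synapses also called arcadlin, had changes of 1.14 at 15 min and 0.99 at 6 h (limma adjusted p = 0.18 and 0.64). The medians of this list were 0.11, 0.15 and -0.01. With library quality weights 6 of these genes passed at 1 h, and 2 when only the groups compared were fitted. Of all rows, 1539 and 138 passed in these fits, against 243 in the main fit. The count at 1 h was 3 without 6 h replicate 2, 1 without 6 h replicate 1 and 1 without 1 h replicate 3.

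Among 24 upstream activators, which carry the calcium signal from the membrane to the nucleus, 1 gene fell at 1 h and 0 passed at 15 min and 6 h (limma). Of all rows, 0.877% passed at 1 h, 0.239% at 15 min and 0% at 6 h. At an unadjusted p under 0.05, 1, 4 and 2 of these genes were lower at 15 min, 1 h and 6 h, against 13.2%, 12.8% and 4.23% of all rows. Higher were 1, 1 and 0, against 1.86%, 2.87% and 2.75% of all rows. The gene that fell was Cacna1c, which encodes an L-type calcium channel subunit (change -0.82, SE 0.11, limma adjusted p = 0.011). It passed in 7 of the 11 fits without 1 library; the call was lost without saline replicate 1 or 3 or without 1 h replicate 1 or 2, and with libraries centred on their median. Without the 4 libraries numbered 3 the limma adjusted p was 0.24. The NMDA receptor subunits Grin2a and Grin2b had changes of -0.66 and -0.43 at 1 h (limma adjusted p = 0.096 and 0.22). The list's medians were -0.05, -0.11 and 0.00.

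**Figure D5:**
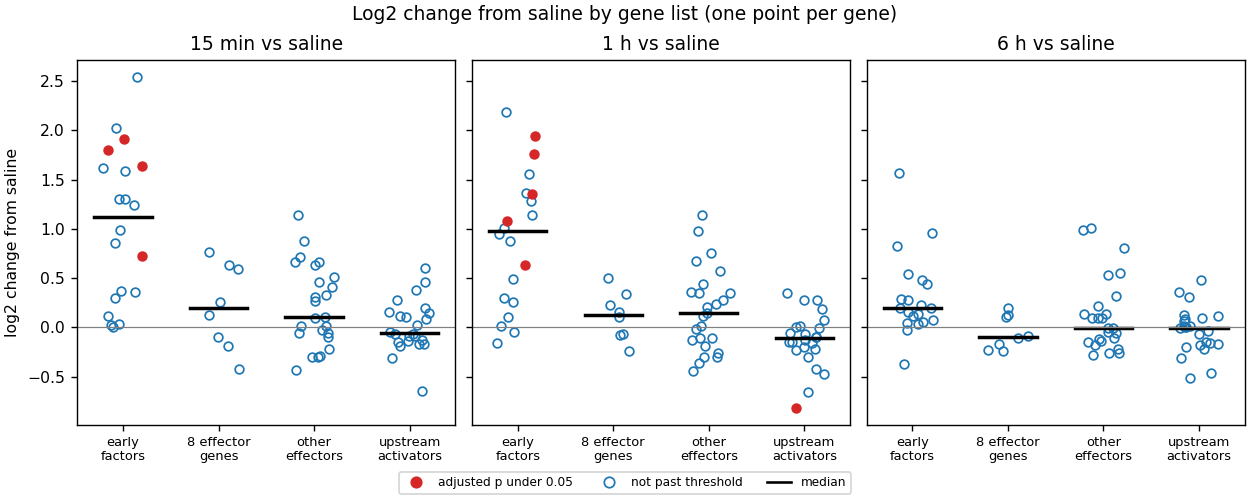
Log2 change from saline (y axis) of each gene in 4 lists (x axis) at 15 min, 1 h and 6 h, with filled points for an adjusted p under 0.05 and a bar for the list median. The early factors have medians of 1.12 and 0.98 at 15 min and 1 h, the 8 effector genes 0.20 and 0.13. The 8 include the transcription factor Npas4, and the lists were chosen with earlier results of these data known.

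Partners of the proteins, members of their families and genes that act with them were tested as 6 further lists, in which 0 genes passed at any time (limma). The BDNF list (7 receptors and processing enzymes) had medians of 0.02, -0.06 and 0.01 at 15 min, 1 h and 6 h, with 2 genes lower at 15 min and at 1 h and 1 higher at 6 h at an unadjusted p under 0.05, against 13.2% and 12.8% of all rows lower and 2.75% higher. Pcsk7, a proprotein convertase, had changes of -0.23 at 15 min and -0.25 at 1 h. Of 8 pentraxins, AMPA receptor subunits and auxiliary proteins, 0, 0 and 1 reached an unadjusted p under 0.05; the 1 was the subunit gene Gria4, lower at 6 h (-0.22), as were 4.23% of all rows. Nptx1, a related pentraxin, had a change of 1.12 at 15 min with an SE of 0.55, and its receptor Nptxr of 0.77 with an SE of 0.39 (limma adjusted p = 0.38 and 0.39), opposite in sign to Nptx2.

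In the Homer list (10 scaffold proteins and group I receptors), Shank3, a scaffold that binds Homer, had changes of 0.62, 0.57 and 0.62 at the 3 times (limma adjusted p = 0.33, 0.31 and 0.70). Of 12 RGS and G proteins, Rgs7, which acts with G beta 5 in neurons, had changes of -0.29, -0.44 and -0.31 (limma adjusted p = 0.24, 0.061 and 0.64). Gnaq, the Gq subunit that Rgs2 acts on, had a change of -0.25 at 1 h (limma adjusted p = 0.37). Of 8 Polo-like kinases and Rap regulators and 8 endocytosis genes that work with Arc, 1 each had an unadjusted p under 0.05 at 1 h, and 0 at the other times. They were Rasgrf1 (-0.37) and the endophilin gene Sh3gl2 (-0.54), both lower, as were 12.8% of all rows at 1 h.

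Rows that followed each gene most closely over the 11 libraries were sought among 16497 named rows, as a description without a test. Npas4 was most like Fam117b (Pearson's r = 0.950) and the early factor Egr1 (0.949). For Arc the closest were Irs1, the insulin receptor substrate (0.958), and Naa15 (0.950), and for Plk2 Eya4 (0.947) and Gabra2 (0.939). Pum2 had an r of 0.973 with Homer1. Nptx2 was most like Cacna2d4 (0.974) and Kcnj12 (0.973), Bdnf like Zfp955a (0.970) and Chgb (0.963), and Nrn1 like Vav3 (0.957) and Nexn (0.955). Rgs2 had the weakest likeness of the 8, with St6galnac6 (0.916) and Emilin2 (0.885). These points share libraries and their normalization.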

How the data were processed

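Total RNA of hippocampus was sequenced with a stranded paired-end kit, per the labels' protocols. The authors deposited 1 table of log2 signals per gene symbol, quantile-normalized between libraries as its values show (every library has the minimum -13.64 and the maximum 16.00). The log base is not stated and was taken as 2, so folds rest on it. In the file check this deposited unit was entered as other because missing values are marked in it. Per the submitters' processing notes, GRCm38, Partek 6.7 and bcl2fastq were used, with no role named. The aligner is not given in the sources used here, nor is the annotation.

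Rows in the lowest 40% by mean were left out, which kept 27721. Of these, 1950 had a missing value in some library, and missing values were dropped by the fit. limma 3.58.1 in R 4.3.3 fitted the 4 groups to all 11 libraries with a mean-variance trend, and two-sided tests were adjusted by Benjamini-Hochberg over all rows at 0.05. Among 27721 simulated rows, log2 changes of 1 were recovered for 47, 43 and 47 of 100 rows at 15 min, 1 h and 6 h, and changes of 2 for 81, 78 and 83. The simulation drew independent normal noise at each row's spread within groups and tried no change under 1. How often changes as small as those of the 8 genes would be recovered is therefore unknown. Correlations used 100000 permutations, two-sided. All 8 members are named; lists name up to 4 genes (5 early factors) with the smallest p in a comparison with saline, and likeness the closest rows with a value in every library, predicted genes passed over. Members and lists were chosen with earlier results of these data known. Alternatives were another scaling, filter, offset, library weights, a replicate block, pairwise fits and left-out libraries; leaving out all replicates 3 was chosen after seeing the data. Some genes that these rules take are not reported here.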

Additional observations from a re-analysis of the deposited data

How the results depend on the processing

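Over 48 member changes, none of which had passed the threshold, and 19 alternatives each (912 values), 46 values reversed in sign. Under none of the alternatives did 30 of the changes reverse. Some alternatives cannot alter a change: another filter, only the groups compared, or leaving out a library of a group outside the comparison. Their values could not reverse, so these counts do not measure how stable the signs are. Centring libraries on their median or weighting them each brought 1 member past the threshold at 1 h, Rgs2; no other member was called under any alternative. Centring turned Bdnf to 0.0779 at 15 min, 0.0740 at 1 h and -0.0039 from 15 min to 1 h, Nptx2 to 0.0590 at 1 h, and Nrn1 to -0.0312 from 1 h to 6 h and -0.1087 from 15 min to 6 h. Cyclic loess gave Bdnf 0.0285 at 15 min and 0.0312 at 1 h. Library weights gave Homer1 0.0939 and Plk2 0.0042 at 6 h, and Bdnf 0.0248 and Rgs2 0.0140 from 15 min to 6 h.

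Leaving out libraries, 1 at a time or all replicates 3, moved the changes from saline over these ranges: Arc at 1 h -0.1499 to 0.2808, Bdnf at 1 h -0.1243 to 0.0947, Nptx2 at 1 h -0.3004 to 0.0631, Plk2 at 1 h -0.0666 to 0.3231, and at 6 h Homer1 -0.1986 to 0.1031, Npas4 -0.1524 to 0.4113, Nptx2 -0.0197 to 0.362, Plk2 -0.2156 to 0.0309 and Rgs2 -0.0272 to 0.1824. From 15 min to 1 h, Bdnf ran from -0.0593 to 0.2215, Nrn1 from -0.2081 to 0.1166 and Plk2 from -0.3289 to 0.0608. From 1 h to 6 h, Bdnf ran from -0.3741 to 0.0547 and Nrn1 from -0.0892 to 0.1794, and from 15 min to 6 h Bdnf from -0.2589 to 0.0827, Nrn1 from -0.1349 to 0.1915 and Rgs2 from -0.1322 to 0.0521. The cause was not tested.

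Counts over all rows moved more. At 1 h the count of 243 became 159 with the replicate block, 1539 with weights, 138 with only the groups compared and 0 to 477 without libraries. At 15 min the count of 66 became 37 with loess, 38 with the replicate block, 119 with weights, 1 with only the groups compared and 0 to 103 without libraries. From 1 h to 6 h (3 rows) and from 15 min to 6 h (2 rows) both the block and the pairwise fits gave 0, and leaving out libraries 0 to 4 and 0 to 3. Whether the replicate numbers pair the samples cannot be decided from these values. Same-numbered libraries of different groups had correlations of deviations from -0.056 to 0.237, with 7 of 15 pairs over 0.1. Of the 11 libraries, 6 were closest to their own number. Libraries with different numbers ran from -0.2495 to 0.2495. Deviations are taken within a group, so the 2 libraries at 15 min mirror each other. Among libraries numbered 3, the values ran from -0.056 (15 min with 6 h) to 0.236 (saline with 1 h). A shared batch was not tested. With the replicate block no member was called, and Plk2 turned to 0.0144 from 15 min to 1 h. Depth is unknown, and the 15 min group has 2 libraries.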
